A study of Mus musculus with 16 samples.

Results

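The genes described here are 57 mouse genes of the mitotic spindle, the kinetochore and the G2/M transition, chosen by name. Each was found in 1 row of the deposited expression table of 18990 genes. All 57 were among the 14028 genes over which every test was run, those whose log2 CPM averaged 0 or more (CPM being a gene's reads scaled to a common library total). The cells were wild-type BL6 mouse embryonic fibroblasts (MEFs) at passage 2, all of them carrying the lentiviral tet-STEMCCA cassette, which encodes Oct4, Sox2, Klf4 and c-Myc, together with rtTA, the activator that makes the cassette respond to doxycycline. They had been transfected with 40 nM of a pool of siRNAs before induction: non-targeting (nt) in the control, and against *Wdr5*, *Brca1* or *Bard1* in the siWdr5, siBrca1 and siBard1 groups. Reprogramming medium was the same in all groups and held doxycycline, chiron, a TGFb inhibitor (Alk5i), ascorbic acid, LIF and FBS. RNA was collected on day 3 or day 6 of induction. Each group had 2 libraries, 16 in all, so each test rests on 2 libraries against 2. The p-values measure the spread between libraries of a group, pooled over all groups in the fit. The nt control also carried the virus, the 4 factors and doxycycline, and no untransduced cells enter any comparison. Knockdown was transient, and each library is a bulk population in which reprogramming and non-reprogramming cells are mixed.

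Mitosis is run by CDK1 bound to cyclin A or B, which starts the assembly of a spindle, and by the kinetochore, the protein layer on each centromere that microtubules grip. The spindle assembly checkpoint holds back the anaphase-promoting complex until every kinetochore is attached, after which separase cuts cohesin and the sister chromatids part. The mRNAs of these proteins accumulate in G2 in dividing cells and are low in resting ones, under the DREAM complex, B-MYB and FOXM1, which act at the cell cycle homology element, and under NF-Y, which binds CCAAT boxes. WDR5 is a core subunit of the histone H3K4 methyltransferase complexes, and BRCA1 and BARD1 form a heterodimeric ubiquitin ligase of DNA repair. In such bulk libraries, fewer dividing cells and less mitotic mRNA per cell cannot be told apart.

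The promoters of the members carried the motifs of those regulators. RefSeq promoters (GRCm38.p6, from 250 bases before to 50 after each gene start) were found for 48 of the 57 genes, 53 promoters in all, and not for *Aurkb*, *Ccna2*, *Cdc25c*, *Spc24*, *Kif20a*, *Tpx2*, *Incenp*, *Foxm1* and *Smc4*. CCAAT, searched on both strands, stood in 41 of the 53 promoters (77.4%), against 37.4% of all 32851 promoters of that length. TTTGAA, the cell cycle homology element, stood in 36 (67.9%), against 17.9% of all promoters and 11.8% of those of the genes tested. Both motifs were present together in 31 (58.5%), against 6.95% of all. The variant element TTCGAA was found in 5 (9.43% against 1.56%), and the E2F sites TTTGGCGC and TTTCGCGC in 3 (5.66% against 0.514%) and 1 (1.89% against 0.323%). Matches of different motifs were counted separately, and a promoter could hold several. The windows of *Ect2*, *Prc1* and *Bub3* overlap with another window of the same gene, so some of their sites were counted more than once. The windows of *Kif14*, *Kif2c* and *Cdca8*, and some of *Cenpk* and *Bub3*, lie wholly inside their genes in the annotation used for overlaps. Their matches were counted all the same. The 47 TTTGAA matches had a median position 17 bases upstream of the gene start, against 124 bases upstream for the 6737 matches in all promoters, and the 85 CCAAT matches one of 71 bases upstream, against 92. The 4 promoters with both motifs whose genes fell most in siBrca1 at day 3 are shown first. That of *Pttg1*, a gene chosen for display after its values were seen because it went the other way, held none of the 5 motifs and comes last. Its window lies wholly inside the gene in the annotation used for overlaps (chr11:43420250-43426251, minus strand). The bases upstream of that annotated start were therefore not searched, and the lack of motifs holds for this window only. Each is written 5′ to 3′ on the gene's strand, with CCAAT and TTTGAA, or their reverse complements ATTGG and TTCAAA, in capitals.
*Ttk* (chr9:83834439-83834738, plus strand): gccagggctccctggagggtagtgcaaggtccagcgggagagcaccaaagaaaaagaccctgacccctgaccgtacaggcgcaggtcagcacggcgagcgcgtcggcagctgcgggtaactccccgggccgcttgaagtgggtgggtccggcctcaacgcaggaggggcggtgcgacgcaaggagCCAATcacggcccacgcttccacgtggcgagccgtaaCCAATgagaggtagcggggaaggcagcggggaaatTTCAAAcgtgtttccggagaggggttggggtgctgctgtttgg
*Kif11* (chr19:37376132-37376431, plus strand): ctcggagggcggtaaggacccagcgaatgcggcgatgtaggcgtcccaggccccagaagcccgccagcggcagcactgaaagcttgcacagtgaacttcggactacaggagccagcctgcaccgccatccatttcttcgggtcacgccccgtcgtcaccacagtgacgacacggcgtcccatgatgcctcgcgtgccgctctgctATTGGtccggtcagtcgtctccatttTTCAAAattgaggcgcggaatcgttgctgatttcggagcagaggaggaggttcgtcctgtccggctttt
*Bub1b* (chr2:118597961-118598260, plus strand): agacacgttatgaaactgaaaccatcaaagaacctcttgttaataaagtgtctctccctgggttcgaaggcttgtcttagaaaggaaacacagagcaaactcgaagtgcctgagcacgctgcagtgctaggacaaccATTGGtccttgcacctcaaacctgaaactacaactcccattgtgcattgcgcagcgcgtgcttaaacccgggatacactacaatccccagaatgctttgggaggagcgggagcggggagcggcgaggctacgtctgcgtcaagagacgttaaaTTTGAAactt
*Plk1* (chr7:122159185-122159484, plus strand): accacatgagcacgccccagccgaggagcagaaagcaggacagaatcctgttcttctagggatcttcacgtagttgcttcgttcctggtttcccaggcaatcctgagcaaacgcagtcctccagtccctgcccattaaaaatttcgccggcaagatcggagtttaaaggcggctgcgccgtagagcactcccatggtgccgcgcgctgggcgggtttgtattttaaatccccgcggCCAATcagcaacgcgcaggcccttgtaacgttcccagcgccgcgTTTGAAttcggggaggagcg
*Pttg1* (chr11:43425932-43426231, minus strand): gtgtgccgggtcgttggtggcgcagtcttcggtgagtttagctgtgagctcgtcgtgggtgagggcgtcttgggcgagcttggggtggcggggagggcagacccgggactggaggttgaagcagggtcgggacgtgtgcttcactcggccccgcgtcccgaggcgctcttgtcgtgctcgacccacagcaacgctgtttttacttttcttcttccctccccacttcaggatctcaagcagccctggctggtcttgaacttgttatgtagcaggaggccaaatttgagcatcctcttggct

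In the first 4 sequences the element lay close to the start, at 7 bases after it in *Ttk*, 19 bases before it in *Kif11*, 40 after it in *Bub1b* and 30 after it in *Plk1*. Their CCAAT matches began 65 and 28 bases before the start in *Ttk*, 45 before it in *Kif11*, 113 before it in *Bub1b* and 14 before it in *Plk1*. Among the members themselves, the median log2-fold change in siBrca1 at day 3 was −1.29 in the 33 genes with TTTGAA and −1.29 in the 15 without it, in siWdr5 it was −0.75 and −0.74, and in siBard1 −0.32 and −0.20. The difference between the genes with and without the motif was not tested. A match is a description of the letters and not a bound site.

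**Figure D1:**
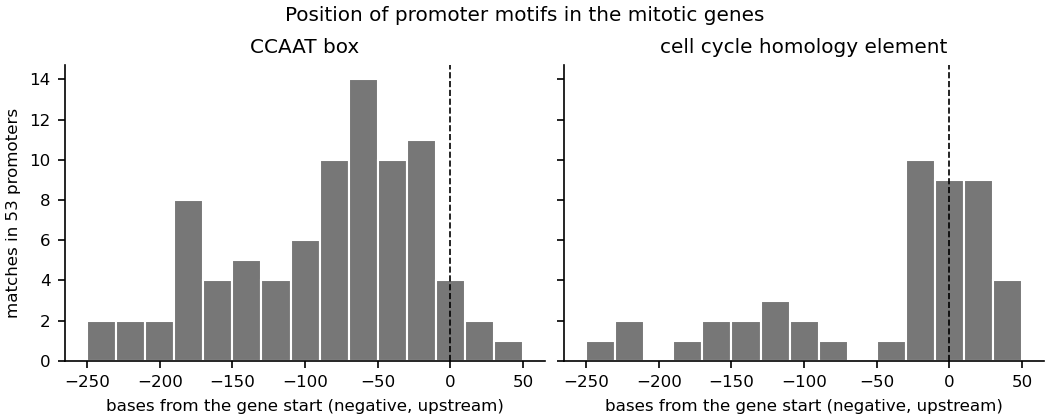
Number of CCAAT (left) and TTTGAA (right) matches, on either strand, in the 53 promoters of the mitotic genes, in windows of 20 bases along the distance from the gene start (dashed line, negative values upstream). TTTGAA matches pile up around the start, with a median 17 bases upstream, and CCAAT matches further upstream, with a median at 71 bases.

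The libraries held 11169738 to 26832534 reads, and no member had fewer than 14 reads in any library. Each siRNA lowered its target at day 3 and none did detectably at day 6. *Wdr5* stood at 131.7 and 130.5 CPM in nt and at 50.6 and 55.3 CPM in siWdr5 at day 3. It was also lower by limma in siBrca1 (74.3 and 68.9 CPM, −0.87, adjusted p = 2.48e-05) and in siBard1 (96.6 and 91.9 CPM, −0.48, adjusted p = 0.009). *Brca1* stood at 82.4 and 77.98 CPM in nt, 37.5 and 19.4 CPM in siBrca1 and 40.5 and 48.4 CPM in siWdr5. *Bard1*, at 30.5 and 29.1 CPM in nt, was at 18.01 and 20.8 CPM in siBard1 and lower still in siWdr5 (13.9 and 15.3 CPM) and siBrca1 (14.4 and 9.07 CPM). By limma each siRNA changed its own target, *Wdr5* by −1.31 (adjusted p = 3.02e-06), *Brca1* by −1.57 (adjusted p = 7.9e-05) and *Bard1* by −0.62 on the log2 scale (adjusted p = 0.0422). The 2 siBrca1 libraries of day 3 differed from each other: 56 of the 57 mitotic genes were lower in replicate 2 than in replicate 1, by a median log2 difference of −0.87, while the median gene differed by 0.02. In the other 7 groups this median lay between −0.17 and 0.16. Counts over the 57 genes and over other genes of division in siBrca1 at day 3 are therefore given with and without these libraries, while the values of single genes and of roles use both. The groups of a day share their estimate of the spread, so this difference also entered the SE and p-values of siWdr5 and siBard1 at day 3. Both siBrca1 libraries stayed in the fits of siWdr5 and siBard1 against nt, except where only the compared groups were fitted.

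At day 3 the mitotic genes fell together in siBrca1 and siWdr5. Added over the 57 genes, expression was 4493 and 4486 CPM in the nt libraries, 2703 and 2916 CPM in siWdr5, 2611 and 1488 CPM in siBrca1, and 3564 and 3783 CPM in siBard1. No knockdown library reached the nt level, and siBard1 lay between nt and the other two. At day 6 the sums were 2720 and 2948 CPM in nt, 3055 and 2689 CPM in siWdr5, 2800 and 3225 CPM in siBrca1, and 3400 and 3320 CPM in siBard1, so the nt control itself had come down and the groups overlapped, except that both siBard1 libraries were the highest of the day.

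**Figure D2:**
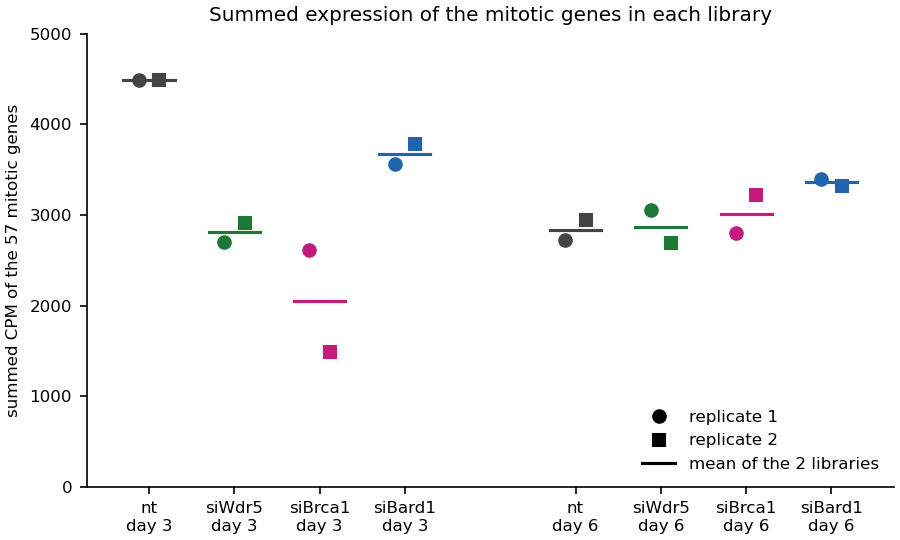
Summed CPM of the 57 mitotic genes (vertical axis, from 0) in each of the 16 libraries, by siRNA and day, with circles for replicate 1, squares for replicate 2 and lines for the mean of the 2. The nt libraries of day 3 lie at 4493 and 4486 CPM, siBrca1 replicate 2 of day 3 at 1488 CPM, and the libraries of day 6 between 2689 and 3400 CPM.

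Of the 57 genes, 56 fell in siBrca1 at day 3 (adjusted p under 0.05 in limma over all genes tested) and none rose, with a median log2-fold change of −1.28, or 0.412 of the nt level. Over all 14028 genes, 21.8% fell, 25.4% rose and the median change was 0.00. A fall of more than 1 on the log2 scale was passed by 47 members, against 6.27% of all genes. Without replicate 2 of siBrca1, 54 members still fell, with a median of −0.85 and 12 of them by more than 1, and *Cdc25b* and *Cenpm* no longer passed. Without replicate 1 it was 56, with a median of −1.67 and 52 by more than 1, and *Pttg1* rose. Single changes moved with these libraries as well: that of *Plk1* was −0.87 without replicate 2 and −2.25 without replicate 1. In siWdr5, 47 fell and none rose, with a median of −0.74 (0.599 of nt), against 16.8% of all genes lower, 18.3% higher and a median of −0.04. All 57 had a negative value there, but the fall exceeded 1 on the log2 scale in 4, against 2.95% of all genes. With 1 library left out, the siWdr5 count dropped to 8 without siWdr5 replicate 1, 21 without siWdr5 replicate 2, 22 without nt replicate 1 and 26 without nt replicate 2, while the median stayed between −0.76 and −0.68. In siBard1, 2 fell and none rose, with a median of −0.30 (0.814 of nt), and 15 were lower at an unadjusted p under 0.05. Over all genes, 5.87% fell in siBard1 and 8.67% rose, and 4392 of the 14028 had an unadjusted p under 0.05 in either direction. With any 1 of the siBard1 and nt libraries left out, the siBard1 median lay between −0.34 and −0.26. When only the siBard1 and nt libraries were fitted, 27 members passed. In that fit the siBrca1 and siWdr5 libraries did not enter the spread, and its share over all genes is not given here. By limma-voom on the reads recovered from the table, 5 fell in siBard1, 52 in siWdr5 and 56 in siBrca1, and the only member that rose was *Pttg1* in siBrca1. At an unadjusted p under 0.05 it was also the only one.

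Read library by library, both siWdr5 libraries lay below both nt libraries in all 57 genes, both siBrca1 libraries in 56 and both siBard1 libraries in 46. The same held for 39.6%, 38.3% and 33.7% of all genes tested. The summed level of the 10 fibroblast markers was 8387 to 9377 CPM in nt, 14839 to 15449 CPM in siWdr5, 12198 to 13439 CPM in siBrca1 and 10356 to 11977 CPM in siBard1 at day 3, and 9, 6 and 1 of the 10 rose. *Dcn*, 1 of the 10, fell in siBrca1 and in siBard1 (−0.52 and −0.46). The 4 macrophage markers in the table summed to 7.08 and 7.45 CPM in nt, 11.2 and 11.8 CPM in siWdr5, 13.2 and 14.97 CPM in siBrca1 and 9.80 and 8.34 CPM in siBard1. Of the 3 tested, *Csf1r* rose in siWdr5 (1.81), *Csf1r* and *Cd68* rose in siBrca1 (1.06 and 1.07) and none passed in siBard1. The 5 endothelial markers summed to 25.2 to 59.9 CPM in the libraries of day 3, and *Adgre1* and *Emcn* had under 3 reads in both nt libraries. The part of these cell types in the mitotic result was not tested.

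**Figure D3:**
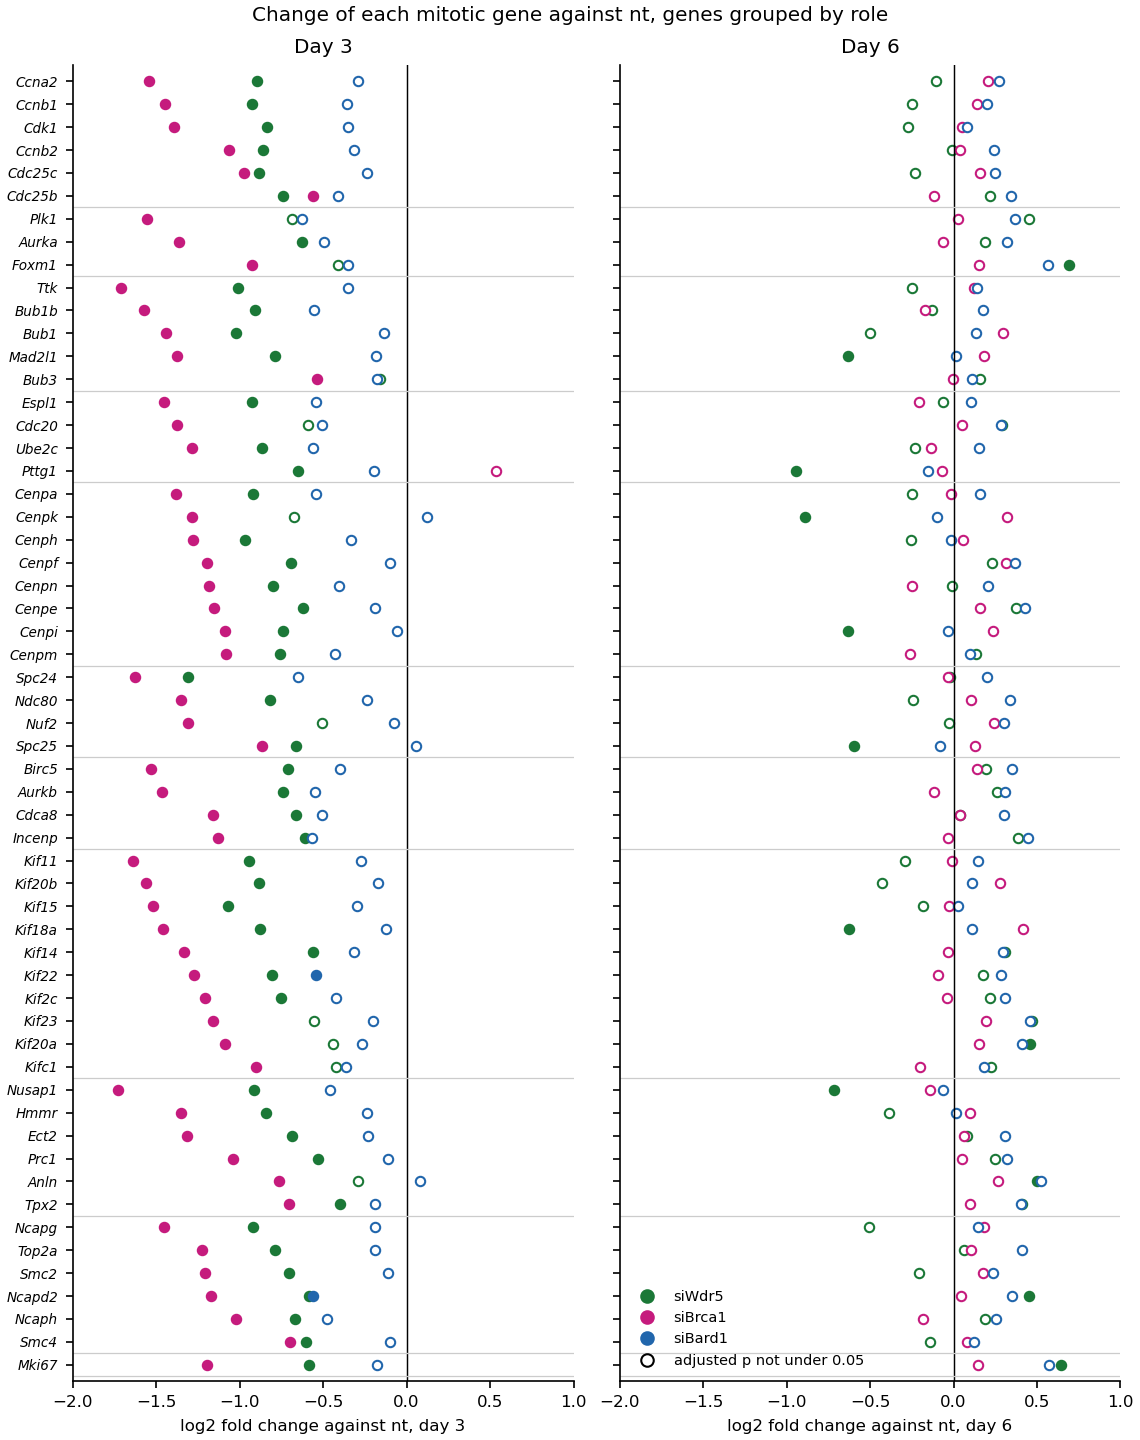
log2-fold change against nt (horizontal axis) of each of the 57 mitotic genes at day 3 (left) and day 6 (right) in siWdr5, siBrca1 and siBard1, with filled points at adjusted p under 0.05 in limma and grey lines between roles. At day 3 the siBrca1 points lie furthest left except for *Cdc25b* and *Pttg1*, and at day 6 the siWdr5 and siBrca1 points lie on both sides of 0 while 51 of the 57 siBard1 points lie above it.

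CDK1, its cyclins and the phosphatases that activate it all fell in both knockdowns. *Cdk1*, the kinase of mitotic entry, stood at 130.5 and 143 CPM in nt, 68.9 and 84.7 CPM in siWdr5, 68.3 and 39.6 CPM in siBrca1 and 102 and 112 CPM in siBard1 at day 3. Its libraries did not overlap between nt and any knockdown, and the log2-fold change was −0.84 (SE 0.19, adjusted p = 0.0042) in siWdr5, −1.39 (SE 0.19, adjusted p = 7.07e-05) in siBrca1 and −0.35 (SE 0.19, adjusted p = 0.226) in siBard1. *Ccnb1*, encoding cyclin B1, was measured at 74.6 and 76.6 CPM in nt and at 38.5 and 41.3, 40.2 and 19.2 and 58.4 and 59.5 CPM in siWdr5, siBrca1 and siBard1. It fell by the fit in siWdr5 (−0.92) and siBrca1 (−1.44), though 44.0% of its 43-base stretches also occur in the pseudogene *Ccnb1-ps*, so its counts are less certain. *Ccna2*, for cyclin A2, went from 130.2 and 124 CPM in nt to 61.97 and 74.9 CPM in siWdr5 and 65.5 and 28.9 CPM in siBrca1, and was at 104 and 103 CPM in siBard1. Its change of −1.54 (SE 0.25, adjusted p = 0.000238) in siBrca1 was the largest of the 6 genes of this role. *Ccnb2*, *Cdc25b* and *Cdc25c* also passed in both, with siWdr5 changes between −0.89 and −0.74 and siBrca1 changes between −1.07 and −0.56. *Cdc25b* and *Pttg1* were the 2 members with a lower value in siWdr5 than in siBrca1.

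Among the mitotic kinases and their transcription factor, all 3 fell in siBrca1. In siWdr5 only *Aurka* passed, though the value of *Plk1* was lower. *Plk1*, whose kinase drives centrosome maturation and mitotic entry, stood at 82.2 and 82.8 CPM in nt, 51.3 and 51.4 CPM in siWdr5, 45.3 and 17.4 CPM in siBrca1 and 54.9 and 52.1 CPM in siBard1. Replicate 2 of siBrca1 was far below the rest, and the siWdr5 and siBard1 libraries lay close to each other. Its change was −1.56 (SE 0.28, adjusted p = 0.000524) in siBrca1, and −0.68 (SE 0.28, adjusted p = 0.0738) in siWdr5 did not pass. That SE is shared by the groups of the day and includes the spread of the siBrca1 libraries. In the alternative fits that kept every siWdr5 and nt library, the adjusted p in siWdr5 ran from 2.82e-06 to 0.213. *Aurka*, for the kinase of spindle poles, was at 68.4 and 75.4 CPM in nt, 45.5 and 47.6 CPM in siWdr5, 39.3 and 19.8 CPM in siBrca1 and 53.3 and 48.9 CPM in siBard1. It passed in siWdr5 (−0.63, adjusted p = 0.0379) and siBrca1 (−1.36, adjusted p = 0.000217). Its adjusted p in siWdr5 ran from 1.53e-05 to 0.139 in the alternative fits that kept every siWdr5 and nt library. *Foxm1*, which encodes a transcription factor of G2/M genes, was at 94.9 and 96.6 CPM in nt, 73.4 and 70.9 CPM in siWdr5, 68.7 and 37.1 CPM in siBrca1 and 76.1 and 73.9 CPM in siBard1. Its fall passed in siBrca1 alone, at −0.92 (SE 0.20, adjusted p = 0.00162), with −0.41 in siWdr5 and −0.35 in siBard1.

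Of the spindle assembly checkpoint genes, *Ttk* and *Bub1b* fell among the furthest in siBrca1 and *Bub3* fell least. *Ttk*, encoding the MPS1 kinase that starts checkpoint signalling, stood at 32.1 and 26.9 CPM in nt, 13.6 and 15.7 CPM in siWdr5, 12.3 and 6.54 CPM in siBrca1 and 21.1 and 25.1 CPM in siBard1. At −1.71 (SE 0.23, adjusted p = 6.43e-05) in siBrca1 it had the second largest fall of the 57 genes, and in siWdr5 it changed by −1.01 (SE 0.23, adjusted p = 0.00442). *Bub1b*, for BUBR1, the part of the checkpoint complex that blocks CDC20, was at 109.6 and 115 CPM in nt, 59.5 and 60.1 CPM in siWdr5, 54.2 and 26.2 CPM in siBrca1 and 79.3 and 73.4 CPM in siBard1. *Bub1*, a kinase of the same pathway, was at 45.1 and 42.5 CPM in nt, 19.5 and 23.7 CPM in siWdr5 and 21.4 and 12.2 CPM in siBrca1, whereas the siBard1 libraries, at 36.1 and 43.8 CPM, reached the nt range. *Mad2l1*, for the MAD2 protein that binds CDC20, stood at 54.8 and 56.1 CPM in nt, 28.6 and 36.2 CPM in siWdr5, 26.1 and 17.5 CPM in siBrca1 and 46.4 and 51.4 CPM in siBard1. These 3 genes passed in both siWdr5 (−0.91, −1.02 and −0.79) and siBrca1 (−1.57, −1.44 and −1.37). *Bub3*, whose protein also serves outside mitosis, changed by −0.16 in siWdr5, which did not pass, and by −0.54 in siBrca1.

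Genes of anaphase and mitotic exit included the only member that did not fall in siBrca1. *Cdc20*, the activator of the anaphase-promoting complex, was at 106 and 114 CPM in nt, 70.1 and 75.8 CPM in siWdr5, 61.1 and 29.4 CPM in siBrca1 and 79.9 and 74.5 CPM in siBard1. The change was −1.37 (SE 0.23, adjusted p = 0.000267) in siBrca1, and −0.59 (SE 0.23, adjusted p = 0.0563) in siWdr5 missed the threshold. *Ube2c*, the ubiquitin-conjugating enzyme of that complex, stood at 106 and 107 CPM in nt, 59.4 and 57.5 CPM in siWdr5, 61.7 and 30.9 CPM in siBrca1 and 74.1 and 70.2 CPM in siBard1. It passed in siWdr5 (−0.87) and siBrca1 (−1.29), with 22.8% of its exon bases opposite *Tnnc2*, a gene on the other strand. *Espl1*, for separase, was at 74.9 and 76.96 CPM in nt, 41.5 and 38.6 CPM in siWdr5, 39.1 and 19.8 CPM in siBrca1 and 53.9 and 50.3 CPM in siBard1, and passed in both as well (−0.92 and −1.45).

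*Pttg1*, encoding securin, the inhibitor that keeps separase inactive until anaphase, was the only member with a positive value in siBrca1 at day 3. At day 3 it stood at 8.05 and 6.81 CPM in nt, 3.87 and 5.78 CPM in siWdr5, 9.95 and 11.6 CPM in siBrca1 and 7.01 and 5.96 CPM in siBard1, from 120 and 117 reads in nt and 133 and 163 reads in siBrca1. Both siBrca1 libraries lay above both nt libraries, and replicate 2, where 56 members were lower than in replicate 1, held the higher value. The change in siBrca1 was 0.54 (SE 0.22, adjusted p = 0.0558), just outside the threshold, and it passed in 6 of 14 alternative analyses, with adjusted p from 0.0258 to 0.27. In siWdr5 it fell, with a change of −0.65 (SE 0.22, adjusted p = 0.0326). That change ran from −0.94 to −0.36 over the alternatives. In those that kept every siWdr5 and nt library, its adjusted p ran from 0.0144 to 0.0753. The difference between the 2 knockdowns was tested directly: siWdr5 minus siBrca1 was −1.18 (SE 0.22, adjusted p = 0.00288), and siBard1 minus siBrca1 was −0.73 (SE 0.22, adjusted p = 0.0287). The first of these passed in 13 of 14 alternatives (adjusted p from 0.000118 to 0.0646) and the second in 8 of 14 (0.00715 to 0.205). The gene (chr11:43420250-43426251, minus strand) shares 0.0613% of its 43-base stretches with any other annotated gene.

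**Figure D4:**
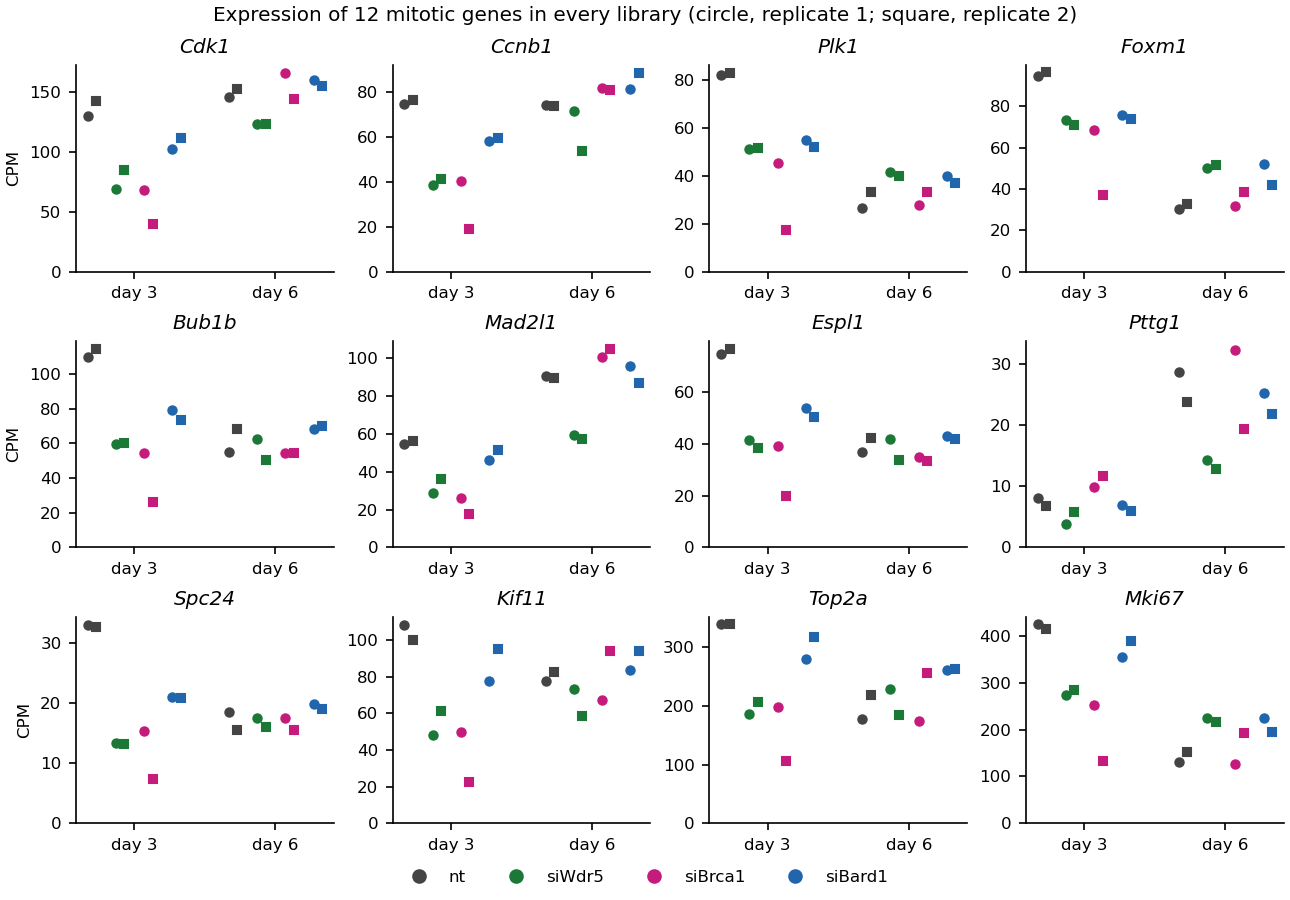
Expression in CPM (vertical axis of each panel, from 0) of 12 mitotic genes in every library at day 3 and day 6, coloured by siRNA, with circles for replicate 1 and squares for replicate 2. In 11 of the panels the siBrca1 square of day 3 is the lowest point of that day, and in the *Pttg1* panel it is the highest of that day, at 11.6 CPM.

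The centromere and CENP genes fell in siBrca1 without exception, 8 of 8, and 7 of 8 fell in siWdr5. *Cenpa*, the histone H3 variant that marks the centromere, stood at 84.2 and 82.1 CPM in nt, 41.3 and 46.7 CPM in siWdr5, 44.2 and 23.1 CPM in siBrca1 and 57.5 and 56.7 CPM in siBard1. It changed by −0.92 (SE 0.21, adjusted p = 0.00423) in siWdr5 and −1.38 (SE 0.21, adjusted p = 0.000148) in siBrca1. *Cenpe*, a kinetochore kinesin that carries chromosomes to the spindle equator, was at 141 and 139 CPM in nt, 87.3 and 95.6 CPM in siWdr5, 83.2 and 47.8 CPM in siBrca1 and 117 and 130.1 CPM in siBard1. Both of its siBard1 libraries stayed under nt, but the change of −0.19 did not pass. *Cenpk*, of the inner kinetochore, was the least expressed member, at 3.57 and 3.84 CPM in nt, 2.31 and 2.33 CPM in siWdr5, 2.05 and 1.12 CPM in siBrca1 and 3.36 and 4.81 CPM in siBard1. Its fall passed in siBrca1 (−1.29, SE 0.31, adjusted p = 0.00351) and not in siWdr5 (−0.67, SE 0.31, adjusted p = 0.102). The remaining *Cenpf*, *Cenph*, *Cenpi*, *Cenpm* and *Cenpn* lay between −0.97 and −0.69 in siWdr5, and between −1.28 and −1.08 in siBrca1.

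The NDC80 complex, the microtubule grip of the kinetochore, held the largest fall of siWdr5. *Spc24*, 1 of its 4 subunits, stood at 32.98 and 32.5 CPM in nt, 13.3 and 13.1 CPM in siWdr5, 15.3 and 7.38 CPM in siBrca1 and 20.96 and 20.8 CPM in siBard1. Its changes were −1.31 (SE 0.24, adjusted p = 0.001) in siWdr5, −1.63 (SE 0.24, adjusted p = 0.000115) in siBrca1 and −0.65 (SE 0.24, adjusted p = 0.0799) in siBard1, the last being the lowest value of any member there although it did not pass. *Ndc80* itself was at 23.7 and 20.8 CPM in nt, 11.8 and 13.5 CPM in siWdr5, 11.9 and 6.33 CPM in siBrca1 and 17.5 and 20.2 CPM in siBard1, a change of −0.82 in siWdr5 and −1.35 in siBrca1. *Nuf2* changed by −0.51 in siWdr5, which missed the threshold, and *Spc25* by −0.66, which passed. In siBrca1 both fell, with changes of −1.31 and −0.87.

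All 4 genes of the chromosomal passenger complex, which corrects faulty attachments, fell in both knockdowns. *Aurkb*, its kinase, stood at 53.04 and 57.5 CPM in nt, 30.9 and 35.4 CPM in siWdr5, 30.2 and 13.2 CPM in siBrca1 and 37.9 and 37.7 CPM in siBard1. *Birc5*, which encodes survivin, the subunit that reads the centromere, was at 59.4 and 59.4 CPM in nt, 35.3 and 37.4 CPM in siWdr5, 29.5 and 14.3 CPM in siBrca1 and 46.5 and 43.7 CPM in siBard1. The siBard1 libraries of both genes lay between nt and the other knockdowns. Changes ranged from −0.74 (*Aurkb*) to −0.61 (*Incenp*) in siWdr5 and from −1.53 (*Birc5*) to −1.13 (*Incenp*) in siBrca1.

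Of the 10 mitotic kinesins, motor proteins that move along or take apart spindle microtubules, 10 fell in siBrca1 and 7 in siWdr5. *Kif11*, for the Eg5 motor that pushes the poles apart, stood at 108 and 99.8 CPM in nt, 47.9 and 60.99 CPM in siWdr5, 49.7 and 22.5 CPM in siBrca1 and 77.7 and 94.9 CPM in siBard1. It changed by −1.64 (SE 0.25, adjusted p = 0.000182) in siBrca1, the third largest fall, and by −0.94 (SE 0.25, adjusted p = 0.0113) in siWdr5. *Kif15*, a motor that can back up Eg5, was at 68.6 and 66.01 CPM in nt, 32.3 and 31.7 CPM in siWdr5, 32.1 and 17.2 CPM in siBrca1 and 50.3 and 59.7 CPM in siBard1, and its change of −1.07 (SE 0.21, adjusted p = 0.00151) in siWdr5 was second to that of *Spc24*. *Kif20a*, a kinesin of cytokinesis, was at 84.4 and 83.9 CPM in nt, 56.99 and 67.3 CPM in siWdr5, 53.5 and 29.3 CPM in siBrca1 and 70.7 and 69.1 CPM in siBard1. It passed in siBrca1 (−1.09) but not in siWdr5 (−0.44), and 29.3% of its exon bases lie opposite *Cdc23*. *Kif22*, which pushes chromosome arms, was at 57.6 and 60.7 CPM in nt, 33.4 and 34.4 CPM in siWdr5, 29.6 and 20.3 CPM in siBrca1 and 42.9 and 38.3 CPM in siBard1. It was 1 of the 2 genes that fell in siBard1, with a change of −0.55 (SE 0.15, adjusted p = 0.0317). Over the other 6 kinesins the siWdr5 changes lay between −0.88 (*Kif20b*) and −0.42 (*Kifc1*), and those of siBrca1 between −1.56 and −0.90. *Kifc1* shares 52.1% of its 43-base stretches with its near copy *Kifc5b*.

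Spindle assembly and cytokinesis held both the largest fall of siBrca1 and some of the smallest. *Nusap1*, for a protein that bundles spindle microtubules, stood at 56.6 and 51.6 CPM in nt, 27.7 and 29.8 CPM in siWdr5, 23.9 and 11.1 CPM in siBrca1 and 41.1 and 37.4 CPM in siBard1. Its change of −1.73 (SE 0.24, adjusted p = 8.42e-05) in siBrca1 was the largest fall of the 57, and in siWdr5 it was −0.91. *Tpx2*, whose protein activates Aurora A on the spindle, was at 114 and 115 CPM in nt, 84.2 and 89.99 CPM in siWdr5, 82.5 and 60.1 CPM in siBrca1 and 102 and 99.1 CPM in siBard1, a smaller fall that passed in both siWdr5 (−0.40) and siBrca1 (−0.71). *Anln*, the anillin of the contractile ring, was at 163 and 164 CPM in nt, 126 and 141 CPM in siWdr5, 126 and 73.5 CPM in siBrca1 and 162 and 183 CPM in siBard1. The siBard1 libraries overlapped those of nt, and the fall passed in siBrca1 (−0.76) but not in siWdr5 (−0.29). *Prc1*, *Ect2* and *Hmmr* changed by −0.53, −0.68 and −0.84 in siWdr5 and by −1.04, −1.31 and −1.35 in siBrca1, and passed in both.

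All 6 genes of chromosome condensation also fell in both. *Top2a*, for the topoisomerase that disentangles sister chromatids, stood at 340.2 and 339 CPM in nt, 187 and 206 CPM in siWdr5, 198 and 107 CPM in siBrca1 and 281 and 317 CPM in siBard1. *Smc4*, a condensin core subunit, was at 118 and 117 CPM in nt, 69.99 and 85.1 CPM in siWdr5, 74.1 and 70.6 CPM in siBrca1 and 94.5 and 127 CPM in siBard1. Its 2 siBrca1 libraries agreed more closely than those of most members, and its changes of −0.60 in siWdr5 and −0.70 in siBrca1 were nearly equal. *Ncapd2*, of the same complex, was at 219 and 207 CPM in nt, 140.2 and 144 CPM in siWdr5, 123 and 72.3 CPM in siBrca1 and 145 and 143 CPM in siBard1. It was the other gene to fall in siBard1, with a change of −0.56 (SE 0.17, adjusted p = 0.0457). Apart from these roles, *Mki67*, for the proliferation marker Ki-67, was at 425 and 414 CPM in nt, 274 and 285 CPM in siWdr5, 252 and 133 CPM in siBrca1 and 355 and 389 CPM in siBard1. It fell in siWdr5 (−0.59, SE 0.20, adjusted p = 0.0371) and siBrca1 (−1.20, SE 0.20, adjusted p = 0.000321), and in siBard1 its change was −0.17.

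To ask whether the knockdowns differed in size, they were set against each other at day 3. Against siBrca1, 52 members were higher in siBard1 and 1, *Pttg1*, was lower, with a median difference of 0.94 and 8.33% of all genes higher and 13.1% lower. *Cenpk* differed most, by 1.41 (SE 0.31, adjusted p = 0.00808), followed by *Kif20b* (1.38), *Kif11* (1.36) and *Ttk* (1.36), while *Cdc25b*, *Bub3*, *Foxm1* and *Cenpm* did not pass. The count was 34 without siBrca1 replicate 2, 55 without siBrca1 replicate 1, 29 without siBard1 replicate 1 and 0 without siBard1 replicate 2, with a median of 0.52 to 1.40 throughout. siWdr5 lay between them: 11 members were higher in siWdr5 than in siBrca1 (5.47% of all genes) and *Pttg1* was lower (10.2% of all genes), with a median of 0.52. The 11 included *Birc5* (0.82), *Nusap1* (0.82), *Cdc20* (0.78) and *Aurka* (0.74). This difference rested on replicate 2 of siBrca1, since 0 members were higher without it, at a median of 0.12, and 53 without replicate 1, at 0.94. It was also 0 without either siWdr5 library. Between siWdr5 and siBard1, 8 members were lower in siWdr5 (3.78% of all genes), led by *Bub1* (−0.89, SE 0.21, adjusted p = 0.0186) and *Kif15* (−0.78, SE 0.21, adjusted p = 0.0334), with a median of −0.43. That count came to 2 without siBard1 replicate 1 and to 0 without any 1 of the other 3 libraries.

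By day 6 the common fall was gone. In siBrca1 no member passed and no gene of the 14028 did (0%), with a median change of 0.05 and a count of 0 in limma-voom as well. At an unadjusted p under 0.05 there was 1 member, against 1123 of all genes. *Cdk1* stood at 146 and 153 CPM in nt and 166 and 144 CPM in siBrca1 at day 6. *Plk1* stood at 26.7 and 33.1 CPM in nt and 27.7 and 33.1 CPM in siBrca1. *Ttk* stood at 25.2 and 25.7 CPM in nt and 26.6 and 28.9 CPM in siBrca1. The siBrca1 libraries overlapped those of nt for *Cdk1* and *Plk1* and lay a little above them for *Ttk*. In siBard1 no member passed (0 in limma-voom as well), and 11 of all genes tested passed (0.0784%). At an unadjusted p under 0.05, 14 members were higher, against 1908 of all 14028 genes in either direction. All but 6 of its members were above nt on average, with a median of 0.24 against 0.06 over all genes. Both siBard1 libraries lay above both nt libraries in 44 of the 57, and in 4800 of all 14028 genes. *Mki67* had the highest value there, at 131 and 152 CPM in nt and 225 and 195 CPM in siBard1, a change of 0.57 (SE 0.18, adjusted p = 0.239).

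In siWdr5 the members split at day 6, with 7 lower and 5 higher, against 5.7% and 16.1% of all genes, and a median of −0.01. The 7 that were lower were *Pttg1*, *Cenpk*, *Nusap1*, *Cenpi*, *Mad2l1*, *Kif18a* and *Spc25*, and the 5 that were higher *Foxm1*, *Mki67*, *Anln*, *Kif20a* and *Ncapd2*. *Pttg1* stood at 28.8 and 23.7 CPM in nt and 14.3 and 12.9 CPM in siWdr5, a change of −0.94 (SE 0.22, adjusted p = 0.0165). *Mad2l1* was at 90.7 and 89.6 CPM in nt and 59.4 and 57.2 CPM in siWdr5 (−0.63, SE 0.11, adjusted p = 0.00622). Both genes were thus low in siWdr5 with no overlap between libraries, as were *Cenpk* (6.37 and 6.99 CPM in nt, 4.07 and 3.19 CPM in siWdr5) and *Nusap1* (72.04 and 76.3 CPM in nt, 54.1 and 37.6 CPM in siWdr5). On the other side, *Foxm1* was at 30.3 and 32.7 CPM in nt and 50.1 and 51.8 CPM in siWdr5 (0.69, SE 0.15, adjusted p = 0.011). *Mki67* was at 131 and 152 CPM in nt and 225 and 216 CPM in siWdr5, and *Kif20a* at 39.4 and 44.5 CPM in nt and 59.4 and 55.9 CPM in siWdr5. All 3 genes were higher in siWdr5 without overlap. *Cdk1*, at 124 and 124 CPM in siWdr5, changed by −0.27 and *Plk1*, at 41.5 and 39.7 CPM, by 0.45, neither of which passed. These calls depended on single libraries: leaving out siWdr5 replicate 2, the deepest library at 26832534 reads, or nt replicate 2 left 0 members, and leaving out nt replicate 1 left 1. Without siWdr5 replicate 1 there were 12 lower and 1 higher. The 10 fibroblast markers summed to 9694 and 13276 CPM in siWdr5 against 5432 and 5231 CPM in nt at day 6. Of these 10, 6 rose and 1, *Postn*, fell (−1.11). The 10 early reprogramming and epithelial markers summed to 591.8 and 375.6 CPM in siWdr5 against 668.5 and 857 CPM in nt. Of these, 2 fell and 0 rose. The part of both marker lists in the mitotic values was not tested.

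Whether a knockdown changed with time was tested as the day 6 change minus the day 3 change. For siBrca1, 53 members had a higher value at day 6 (10.3% of all genes), with a median difference of 1.33, and *Pttg1*, *Cdc25b*, *Smc4* and *Cenpm* did not pass. *Kif18a* moved most, by 1.88 (SE 0.32, adjusted p = 0.00285), followed by *Ttk* (1.84) and *Kif20b* (1.84). Leaving out 1 library gave 38 to 55, the lowest without siBrca1 replicate 2 of day 3. For siWdr5, 8 did so (3.4% of all genes), with a median of 0.78: *Spc24* (1.29, SE 0.32, adjusted p = 0.0393), *Mki67*, *Foxm1*, *Ncapd2*, *Incenp*, *Kif22*, *Cdc25b* and *Tpx2*. This count was 0 without any 1 library except nt replicate 2 of day 6, without which it was 1. For siBard1 none passed, against 3 of all genes in that direction (0.0214%), and the count was 0 in limma-voom, with a median of 0.56. At an unadjusted p under 0.05 there were 23 members, against 2694 of all 14028 genes in either direction. The value of *Incenp*, 1.02, was the highest (adjusted p = 0.0751).

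The convergence at day 6 came with a fall in the control. From day 3 to day 6 in nt, 32 members fell and 4 rose, with a median of −0.69 (0.618 of the day 3 level), against 27.1% of all genes lower and 19.0% higher. *Foxm1* fell most, from 94.9 and 96.6 CPM to 30.3 and 32.7 CPM, −1.60 (SE 0.20, adjusted p = 1.76e-05). It was followed by *Mki67* (−1.57, SE 0.22, adjusted p = 5.41e-05), *Ncapd2* (−1.52, SE 0.17, adjusted p = 7.35e-06), *Plk1* (−1.47, SE 0.27, adjusted p = 0.000459) and *Aurkb* (−1.36, SE 0.24, adjusted p = 0.000333). All 4 genes of the chromosomal passenger complex and all 3 of the kinase group fell. *Cdk1* (0.13), *Ccnb1* (−0.03), *Bub1* (−0.03) and *Ndc80* (−0.14) did not pass, so the fall was not common to all members. *Pttg1* rose from 8.05 and 6.81 to 28.8 and 23.7 CPM, by 1.82 (SE 0.23, adjusted p = 2.2e-05), and *Cenpk* (0.85), *Mad2l1* (0.70) and *Spc25* (0.64) rose less. With 1 library left out the counts were 25 to 30 lower and 3 higher.

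The course of each knockdown was fitted in the same way. In siBrca1, 28 members rose and 1, *Foxm1*, fell from day 3 to day 6, with a median of 0.54, against 20.5% of all genes higher and 28.9% lower. *Cenpk* rose most (2.46, SE 0.27, adjusted p = 3.9e-06) and *Mad2l1* by 2.26 (SE 0.15, adjusted p = 5.38e-08), from 26.1 and 17.5 to 100.3 and 105 CPM. Without siBrca1 replicate 2 of day 3 there were 22 higher and 11 lower, at a median of 0.10, and without replicate 1 of day 3 45 higher and none lower, at 1.06. In siWdr5, 10 rose and 1, *Ncapd2*, fell, with a median of 0.10, against 14.9% and 10.4% of all genes. The fall of *Ncapd2* no longer passed when any siWdr5 library was left out. The number that rose was 2 without siWdr5 replicate 1 of day 6, 3 without replicate 1 of day 3 and 6 without replicate 2 of day 3. In siBard1, 8 rose and 9 fell, with a median of −0.08, against 17.0% and 17.7% of all genes. Left out in turn, siBard1 replicates 1 and 2 of day 3 gave 3 and 5 higher and 3 and 0 lower, and replicates 1 and 2 of day 6 gave 4 and 2 higher and 8 and 1 lower. *Pttg1* rose in all 3, by 1.52 in siWdr5, 1.22 in siBrca1 and 1.86 in siBard1 (adjusted p = 0.000281, 0.000461 and 3.08e-05). The comparisons of this paragraph and the 2 before it share libraries and are not independent of each other.

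The GC content of the members' longest transcript was related to their change in several comparisons, and less so in others. It ran from 34.8% (*Ncapg*) to 56.98% (*Kifc1*) with a median of 46.3%. The 32 genes that fell in the nt course had a median of 48.1%, the 4 that rose 41.3% and the 21 others 42.4%. At day 6 in siWdr5 the 7 lower genes had a median of 41.4% and the 5 higher ones 48.4%. Across the 57 genes, which share their libraries and are not independent replicates, Spearman's rho of GC content with the change was −0.58 in the nt course, 0.60 in siWdr5 at day 6, −0.78 in siBard1 at day 3 and −0.66 in siBrca1 at day 6. In siWdr5 and siBrca1 at day 3 rho was 0.20 and 0.17, and in siBard1 at day 6 it was 0.36. Only 2 members passed in siBard1 at day 3 and 0 in siBrca1 or siBard1 at day 6. Over the 14018 genes tested that had a GC value, the same coefficients were −0.01, 0.20, −0.18, −0.19, 0.06, 0.14 and 0.08. Replicates of 1 group differed along GC content as well: for replicate 2 minus replicate 1 it was −0.72 over the members and −0.53 over all genes in siBard1 at day 3, −0.46 and −0.53 in siBrca1 at day 6, and 0.40 and −0.0049 in siWdr5 at day 6. At day 3 it was 0.48 and 0.22 in nt and −0.51 and −0.26 in siWdr5. The part of GC content in these results was not tested. In the nt course the 33 genes with TTTGAA had a median change of −0.76 (−1.57 to 0.64) and the 15 without it one of −0.03 (−1.26 to 1.82), ranges that overlap, and the difference was not tested.

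**Figure D5:**
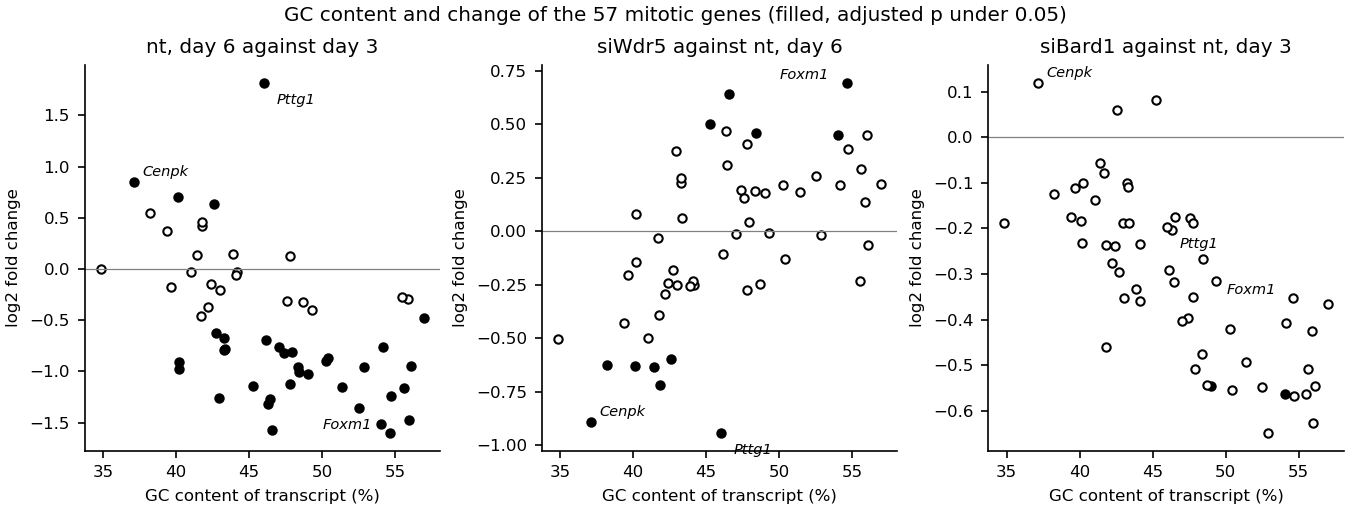
GC content of the longest transcript in percent (horizontal axis) against log2-fold change (vertical axis) of the 57 mitotic genes in the nt course, in siWdr5 at day 6 and in siBard1 at day 3, filled at adjusted p under 0.05 in limma. Spearman's rho across genes is −0.58, 0.60 and −0.78 in the 3 panels, and *Pttg1* lies apart from the other genes in the first 2.

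Per kilobase of the longest annotated transcript, the members covered a wide range of levels. In nt at day 3 *Top2a* had the highest mean, at 65.1 CPM per kb, followed by *Cdc20* (61.2 CPM per kb) and *Ube2c* (48.6 CPM per kb), and *Cenpk* the lowest, at 1.78 CPM per kb, preceded by *Kif18a* (2.45 CPM per kb) and *Pttg1* (4.44 CPM per kb). At day 6 *Pttg1* stood at 15.7 CPM per kb in nt and *Cenpk* at 3.22 CPM per kb. The members lie on 17 chromosomes.

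Other genes of division were counted in the same way, against 21.8% of all genes lower in siBrca1 at day 3, 16.8% in siWdr5 and 5.87% in siBard1. Of 76 further mitotic genes, 67 fell in siBrca1 at day 3, 54 in siWdr5 and 6 in siBard1, and none rose, with medians of −1.08, −0.68 and −0.28. *Sapcd2* (−2.16), *Cenpp* (−1.77), *Mybl2* (−1.67), for B-MYB, and *Knl1* (−1.65), for the kinetochore scaffold, had the largest changes in siBrca1. Of 39 genes of S phase and replication, 38, 34 and 9 fell and none rose, with medians of −1.19, −0.75 and −0.45, led by *Gins1* (−1.69), *Ccne2* (−1.64), *Mcm10* (−1.61) and *Mcm5* (−1.54). Without siBrca1 replicate 2, 60 of the 76 and 37 of the 39 fell there, and without replicate 1 it was 67 and 38. Of the 15 subunits and partners of the anaphase-promoting complex, 2 fell in siBrca1 (*Anapc15*, −0.81, and *Fzr1*, −0.50), while in siWdr5 none fell and 1 rose, against 18.3% of all genes higher. Without siBrca1 replicate 2 none of the 15 passed in siBrca1. In siBard1 none of the 15 passed, and the medians were −0.13 in siBrca1 and −0.02 in both siWdr5 and siBard1. At day 6 none of the 76, 39 or 15 genes passed in siBrca1 or siBard1 by limma, where 1, 3 and 0 had an unadjusted p under 0.05 in siBrca1 and 12, 3 and 1 in siBard1. Over all 14028 genes, 1123 and 1908 had such a p-value in siBrca1 and siBard1. siWdr5 had 8 lower and 4 higher of the 76, 4 lower and 2 higher of the 39, and 3 higher of the 15, against 5.7% of all genes lower and 16.1% higher. Of the 10 early reprogramming and epithelial markers, 5 fell in siWdr5 at day 3, 4 fell and 1 rose in siBrca1, and 1 fell in siBard1, with *Fut9* (−1.65), *Cdh1* (−1.46) and *Epcam* (−1.46) among those that fell in siBrca1. Their summed level was 61.3 to 85.3 CPM in nt, 25.5 to 26.2 CPM in siWdr5, 27.2 to 43.4 CPM in siBrca1 and 47.9 to 53.1 CPM in siBard1 at day 3.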

How the data were processed

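RNA depleted of ribosomal RNA was sequenced from 16 libraries, 2 for each of 4 siRNAs at 2 days. Per the labels and the methods, the authors aligned paired reads with STAR 2.5.2b to mm10 and made log2 CPM values with edgeR 3.20.9, which are the deposited values. The read counter, its strand setting and its annotation are not given in the sources used here. The deposited log2 CPM values gave back whole reads for 100% of values (within 0.05 of a whole number), from which depth was taken. CPM in the text is 2 raised to the deposited value.

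The 14028 of 18990 genes whose log2 CPM averaged 0 or more were tested across all genes with limma 3.58.1 (R 4.3.3), with a trend on the mean, on the 8 libraries of a day with 1 mean per group, or on all 16 for contrasts of both days. Tests were two-sided with Benjamini-Hochberg adjustment over all genes. A member fell or rose at adjusted p under 0.05, and a second count also asked for an absolute log2-fold change over 1. Median changes are over the 57 members. The fit was tested on simulated data with 200 changed genes. Members were named in full from a set of 22 plus the 3 largest passing changes in each direction of each comparison with nt and those against the sign of the median. Other members named were singled out after their values were seen. The members, lists and alternatives were chosen with earlier results of these data known. Overlaps, transcript GC content and shared 43-base stretches came from a GENCODE annotation of mm10, and exon overlaps on the other strand matter where counting ignored strand. Alternatives changed the filter, the libraries in the fit, the trend, the pseudocount, the scaling, the unit (limma-voom on recovered reads), the replicate block and the libraries left out.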

Additional observations from a re-analysis of the deposited data

Results flagged for a closer look

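The size of the siBrca1 change differed between days by the test of the difference itself for 53 of the 57 genes, and that of siWdr5 for 8, in all cases with a higher value at day 6. At day 6 the knockdown targets were no longer detectably lower: *Brca1* stood at 35.9 and 40.1 CPM in siBrca1 against 33.2 and 42.6 CPM in nt, and *Wdr5* at 85.5 and 72.4 CPM in siWdr5 against 91.8 and 98.1 CPM in nt. *Pttg1* differed between siWdr5 and siBrca1 at day 3 by −1.18 on the log2 scale, with both siBrca1 libraries (9.95 and 11.6 CPM) above both siWdr5 libraries (3.87 and 5.78 CPM), while the median member differed the other way, by 0.52. With 2 libraries per group, single libraries could not be tested as outliers.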

How the results depend on the processing

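With 2 libraries per group, single libraries decided several counts, while no member had fewer than 14 reads in any library. Of 57 genes, the counts passing in siBrca1 at day 3 (56), siBrca1 and siBard1 at day 6 (0 each) and the siBrca1 difference between days (53) stayed within 1.5 times in the alternatives with all libraries. Without the filter on low values, 24 passed in siWdr5 at day 3, 0 in siBard1 at day 3, 1 for siWdr5 against siBrca1, 29 for siBard1 against siBrca1 and 0 for siWdr5 against siBard1. Without the trend, the counts were 19 for siWdr5 and 0 for siBard1 at day 3, 7 for siWdr5 at day 6, 1, 0 and 0 for the same 3 pairs and 0 for the siWdr5 difference between days. Fitting only the libraries of the compared groups gave 27 for siBard1 at day 3, 1, 31 and 35 for the pairs, and 39 and 28 for the siWdr5 and siBard1 differences between days. Centring each library on its median gene gave 1 for siBard1 at day 3, 4 for siWdr5 against siBard1 and 1 for the siWdr5 difference between days, and quantile normalization 5 and 2 for the last 2. limma-voom gave 5 for siBard1 at day 3. With a change over 1 on the log2 scale also required, the counts were 4 for siWdr5 and 0 for siBard1 at day 3, 0 for siWdr5 at day 6, 1, 25 and 0 for the pairs, 4 for the siWdr5 difference and 16 for the nt course. The cause of these shifts was not tested.

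With 2 replicate numbers, which no label ties to an experiment shared by the groups, a pairing could not be established: the replicate differences of 2 groups correlated across genes by 0.0197 on average at day 3 (−0.0931 to 0.0721) and 0.108 at day 6 (−0.0696 to 0.26). With the replicate number as a block, 10 passed for siBard1 at day 3, 32 for siWdr5 against siBrca1 and 15 for siWdr5 against siBard1, and the other counts stayed within 1.5 times.

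Leaving out 1 library gave 8 to 26 for siWdr5, 54 to 57 for siBrca1 and 0 to 0 for siBard1 at day 3, 0 to 13 for siWdr5 at day 6, 0 to 54, 0 to 56 and 0 to 2 for the pairs, 0 to 1 for the siWdr5 and 38 to 55 for the siBrca1 difference between days, and 28 to 33 for the nt course. Of 1341 alternative values of the 32 genes named in full, 1193 kept direction and side of the threshold, 104 lost and 40 gained significance. These values cover only siWdr5, siBrca1 and siBard1 against nt at day 3. Day 6, the pairs, the differences between days and the nt course are not in this tally. The 4 that reversed were in siBard1 at day 3: without replicates 1 and 2 in turn, *Smc4* was at 0.11 and −0.31, *Bub1* at 0.0016 and −0.28, *Cenpk* at 0.38 and −0.14, and *Anln* at 0.17 and −0.0075.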
